A study of Mus musculus with 30 samples.

Results

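The response of skeletal muscle to SRT2104 was set against the response of liver. The response of a tissue is the level on a standard diet (SD) with SRT2104 minus the level on SD alone, and the tissue difference is the muscle response minus the liver response, so that a value above 0 means a more positive response in muscle. It was measured on 20 of the 30 arrays of the series, 5 each of muscle SRT2104, muscle SD, liver SRT2104 and liver SD. Each tissue has 15 arrays, since 5 further mice of the series were on the same chow under calorie restriction (CR), and a probe entered when 5 or more of them detected it in both tissues, with 0.02 as the limit of the detection p-value. This kept 8998 of 25697 probes and 6534 named genes. Each gene is given by its brightest kept probe, in log2 units of signal after every array of a tissue had been brought to the same mean and SD. Responses are given with their standard errors from limma, with 5 arrays per group, and p-values are adjusted over all 8998 probes.

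The CR arrays served only this detection filter and the scaling, and enter no comparison. The mice were male C57BL/6J on AIN-93G chow, and both diets were begun at 28 weeks of age. The chow of the SRT2104 mice contained 1.33 g of the compound per kg, which gives about 100 mg per kg of body weight each day. The design notes name 5 mice of each diet as the source of both tissues and place the sampling after 41 weeks, the study's methods give an age of 41 weeks and 14 weeks of diet, and the labels of the SD and SRT2104 groups place it at the end of life, so the age of these groups was not settled. Neither the hour of sampling nor the muscle taken is stated for these arrays, and muscle and liver RNA came through different extraction kits, so that tissue and kit cannot be told apart.

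SRT2104 is a synthetic small-molecule activator of SIRT1, an NAD-dependent deacetylase that acts on histones, transcription factors and metabolic enzymes. Liver supplies glucose, lipids and plasma proteins to the body, whereas skeletal muscle is a large consumer of fuel, so one systemic compound can meet very different gene programmes. Both tissues also run the circadian clock, in which CLOCK and BMAL1 (the product of Arntl) switch on their targets through E-boxes, PER and CRY proteins repress them, and ROR and REV-ERB receptors compete for an element that controls Arntl itself.

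Because Dbp, Arntl and Clock were among the 7 genes that responded alike in both tissues, promoter stretches of 4 genes of the clock list are shown: Arntl, Dbp, and Tef and Ciart, which were not in that class and are shown for their E-boxes (RefSeq, GRCm38.p6), with matches to any of the searched elements in capitals. The Arntl stretch holds TAGGTCA, the core of the element bound by ROR and REV-ERB receptors, beginning 30 bases past the second of its 2 annotated starts (chr7:113207523-113207552, + strand). The other 3 are the 250 bases before a start, and their capitals mark the E-box CACGTG: Dbp (chr7:45704997-45705246, + strand) has no match, Tef (chr15:81802423-81802672, + strand) has 1, and Ciart (chr3:95882229-95882478, - strand) has 3.
Arntl: tttagggaaggcagaaagTAGGTCAgggac
Dbp: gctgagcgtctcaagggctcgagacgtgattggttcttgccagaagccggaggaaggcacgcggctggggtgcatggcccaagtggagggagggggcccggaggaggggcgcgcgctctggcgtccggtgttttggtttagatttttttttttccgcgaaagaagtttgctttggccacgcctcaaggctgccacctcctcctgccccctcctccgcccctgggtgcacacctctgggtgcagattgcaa
Tef: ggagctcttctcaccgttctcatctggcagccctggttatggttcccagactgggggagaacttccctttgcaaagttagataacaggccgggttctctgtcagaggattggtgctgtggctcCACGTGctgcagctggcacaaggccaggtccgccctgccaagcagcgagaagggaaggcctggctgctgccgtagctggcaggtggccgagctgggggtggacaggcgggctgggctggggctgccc
Ciart: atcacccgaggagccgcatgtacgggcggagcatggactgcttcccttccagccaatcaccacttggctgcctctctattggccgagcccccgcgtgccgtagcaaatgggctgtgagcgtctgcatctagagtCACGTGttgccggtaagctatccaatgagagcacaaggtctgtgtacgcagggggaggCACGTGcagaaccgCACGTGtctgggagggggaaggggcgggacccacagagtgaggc

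The search covered both strands of windows of 300 bases (250 before and 50 after each start) for CACGTG, for TAGGTCA and TGGGTCA, and for the D-box TTANGTAA, to which the DBP and TEF proteins bind. Of the 16 clock genes measured in both tissues, 13 had a window, and CACGTG was found for Ciart, Per1 and Tef, TAGGTCA for Arntl and Nfil3, TTANGTAA for Timeless and TGGGTCA for none. Over all 32851 windows, 7.15% held CACGTG, 2.61% TAGGTCA, 3.98% TGGGTCA and 2.32% TTANGTAA. The windows for Dbp and Clock held none of the 4, which says only that these letters are not in those stretches.

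Before any comparison, 2 muscle arrays stood apart. The median correlation with the other arrays of its group was 0.886 for muscle SRT2104 replicate 3 and 0.965 for muscle SD replicate 1, and between 0.974 and 0.993 for the other 18 arrays. On muscle SRT2104 replicate 3, 24 of 27 hepatocyte markers were higher than on every other SRT2104 or SD muscle array, by a median of 5.79 log2 units over the SD mean. Counts are therefore also given from a fit of 18 arrays without these 2. The tissue labels otherwise held: all 22 fibre markers on the array were detected on at least 5 of the 10 muscle arrays, whereas 11 of them, among them Ckm, Mb and Ttn, were never detected in liver, and 10 of 27 hepatocyte markers were detected on at least 5 of the 10 muscle arrays, against 24 on the 10 liver arrays, with 3 detected on no muscle array (Alb, Fgb and Tat, of which Fgb and Tat were not detected in liver either). Before scaling, the median signal of kept probes was 224 to 266 on muscle SRT2104 arrays and 272 to 480 on muscle SD arrays, with no overlap, and 351 to 480 on liver SRT2104 against 470 to 603 on liver SD arrays. The part of these signal differences in the results was not tested.

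Muscle and liver differed in their response at 1629 of 8998 probes (18.1%) and 1102 of 6534 genes (16.9%), by limma with Benjamini-Hochberg adjustment at 0.05. The difference lay above 0 for 556 genes (8.51%) and below 0 for 546 (8.36%). Muscle carried most of it. At 1439 of the 1629 probes the larger absolute response was that of muscle, and at 190 that of liver, and the median absolute response at these probes was 0.46 log2 units in muscle and 0.12 in liver. The response itself passed for 1874 genes in muscle (28.7%, of all genes 15.3% risen and 13.4% fallen) and for 38 in liver (0.582%, with 0.245% risen and 0.337% fallen). The spread was pooled over the 4 groups, so the standard errors of a probe are the same in both tissues by construction. With 18 arrays, 1617 genes differed (24.7%, with 14.7% above and 10.1% below 0) and 277 were called in liver (4.24%), and all 1535 probes called in both fits had the same direction.

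The split of the calls by direction depended on the scaling. Of the called probes, 44.5% lay above 0, against 34.2% with neqc, 34.0% with quantile normalization within each tissue and 51.9% when arrays were aligned at their medians, and 52.9% did with 18 arrays. With the genes in 3 equal groups of 2178 by mean level, calls were made for 11.1% of the lowest, 20.6% of the middle and 19.0% of the highest group.

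Genes were sorted into classes by the 3 tests. A gene was called opposite when the difference and both responses passed and the responses had opposite signs (4 genes, 0.0612%), and alike when both responses passed in the same direction and the difference did not (7 genes, 0.107%). It was called muscle only when the difference and the muscle response passed and the liver response had an unadjusted p of 0.05 or more (809 genes, 12.4%), and liver only in the reverse case (17 genes, 0.26%). For 1 gene, Clpx, both responses and the difference passed in the same direction, and 271 further genes had a difference but fitted none of these. Without the 2 arrays the classes held 43 opposite (0.658%), 39 alike (0.597%), 1071 muscle only (16.4%) and 91 liver only genes (1.39%).

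**Figure D1:**
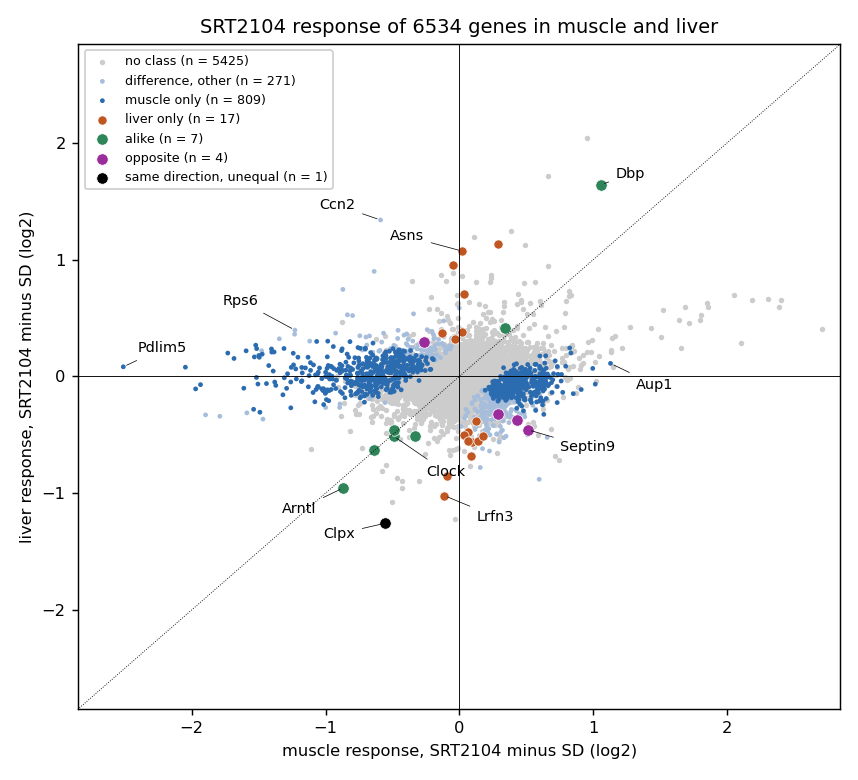
Response to SRT2104 (SRT2104 minus SD, log2) of 6534 genes in muscle, on the x axis, and in liver, on the y axis, with 1 point per gene and colours for the classes. The cloud is wide along the muscle axis, from -2.51 for Pdlim5, and narrow along the liver axis, while the 7 alike genes, Dbp, Arntl and Clock among them, lie near the dotted line of equal responses.

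By the smaller of their responses, Dbp and Arntl led the genes that responded alike, with Clock behind Mreg, a gene outside the clock. Dbp, a transcription factor of the clock's output, was higher on SRT2104 in both tissues, and Arntl and Clock, which encode the activating pair of the clock, were lower in both. Dbp measured 12.31, 12.22, 11.96, 11.89 and 12.04 on the muscle SRT2104 arrays, against 10.91, 10.60, 10.85, 11.16 and 11.60 on the muscle SD arrays. In liver it measured 13.47, 13.27, 13.61, 12.80 and 13.44 on SRT2104, against 11.05, 10.66, 11.92, 12.25 and 12.50 on SD. Every SRT2104 array lay above every SD array in each tissue, a separation seen in 8.77% of all genes in muscle and 2.77% in liver for higher levels. The rise was 1.06 ± 0.27 in muscle (2.08-fold, adjusted p = 0.00564) and 1.64 ± 0.27 in liver (3.12-fold, adjusted p = 0.00618). The difference of -0.58 had a 95% interval from -1.38 to 0.22 (adjusted p = 0.319), which leaves room for a larger rise in liver.

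Arntl measured 7.95, 7.91, 7.88, 7.80 and 8.32 on muscle SRT2104 arrays, against 9.25, 9.07, 8.56, 8.75 and 8.57 on muscle SD arrays. On liver arrays the values were 7.68, 7.54, 7.46, 7.42 and 7.47 on SRT2104, against 8.76, 8.84, 8.20, 8.37 and 8.16 on SD. The groups did not overlap in either tissue, as for 9.69% of genes with lower levels in muscle and 2.28% in liver. Arntl fell by 0.87 ± 0.15 in muscle (adjusted p = 0.000165) and by 0.96 ± 0.15 in liver (adjusted p = 0.00308), with a difference of 0.09 (95% interval -0.35 to 0.52). Only 2 of the 5 liver SRT2104 arrays detected it, so that its level there lies near the background.

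Clock measured 9.04, 9.04, 8.89, 9.01 and 9.09 on muscle SRT2104 arrays, against 9.996, 9.37, 9.41, 9.50 and 9.25 on muscle SD arrays. The liver values were 9.80, 10.07, 9.86, 10.14 and 9.82 on SRT2104, against 10.47, 10.57, 10.33, 10.47 and 10.42 on SD. Again no array of one diet reached into the range of the other. The fall was 0.49 ± 0.11 in muscle (-0.49, adjusted p = 0.00184) and 0.51 ± 0.11 in liver (-0.51, adjusted p = 0.0337), and the difference of 0.02 had an interval from -0.30 to 0.34. The liver call of Clock was lost in 13 of 35 alternative settings, 7 of which left out 1 array: liver SRT2104 replicate 1, 2, 3 or 5 or liver SD replicate 1, 2 or 4. Its liver values were then -0.54 to -0.48, with adjusted p-values of 0.0521 to 0.0955.

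Beyond Dbp, Arntl and Clock, few genes of the clock list passed in muscle and none in liver. Of the 16 measured, Dbp, Arntl and Clock included, none passed for a tissue difference. In muscle 3 rose and 3 fell, where 15.3% of all genes rose and 13.4% fell. In liver 1 rose and 2 fell, which were Dbp, Arntl and Clock themselves, where 0.245% of all genes rose and 0.337% fell. The median difference was 0.05, against 0.07 over all genes. Rora, the receptor that activates Arntl, fell in muscle (-0.89, adjusted p = 6.5e-05) and measured -0.34 in liver, and its difference of -0.55 just missed the threshold (adjusted p = 0.0539). Nr1d1, the gene of REV-ERB alpha, measured -0.01 in muscle and 0.50 in liver (difference adjusted p = 0.0558), and it passed in neither tissue. Tef, a relative of Dbp, rose in muscle by 0.53 (adjusted p = 0.0498) and measured 0.63 in liver (adjusted p = 0.149). The values of Ciart were 0.48 and 0.80, of Per1 0.83 and 0.69, and of Per2 0.55 and 0.53, in muscle and in liver in each case, and none of them passed. With 18 arrays, 1 clock gene, Timeless, differed between tissues (0.29, adjusted p = 0.0479).

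The other alike genes lay outside the clock. Mreg, which encodes the melanosome-transport protein melanoregulin, measured 9.92, 10.24, 9.93, 9.52 and 10.09 on muscle SRT2104 arrays against 10.91, 10.55, 10.35, 10.47 and 10.60 on muscle SD arrays. In liver it measured 9.90, 10.04, 10.03, 9.90 and 10.16 on SRT2104 against 10.94, 10.61, 10.59, 10.45 and 10.60 on SD. The groups were separate in both tissues, and the responses were -0.64 (adjusted p = 0.000546) and -0.63 (adjusted p = 0.0235), with an interval of the difference from -0.36 to 0.35. Ddx50, an RNA helicase of the nucleolus, fell by 0.49 in muscle and 0.46 in liver, and Avpi1, named for its induction by vasopressin, rose by 0.34 and 0.42. A dimmer probe of Ddx50 gave a tissue difference of 0.38 (adjusted p = 0.0415), and a second probe of Avpi1 gave 0.27 in muscle and 0.26 in liver. Snx24, a sorting nexin, fell by 0.33 in muscle and 0.51 in liver, and its muscle call was lost with 18 arrays (adjusted p = 0.128). The liver call of Mreg was lost without liver SRT2104 replicate 1, 2, 3 or 4 or liver SD replicate 2 (values -0.64 to -0.60, adjusted p = 0.0517 to 0.0615), and that of Ddx50 without liver SRT2104 replicate 1, 2, 3 or 5 or liver SD replicate 2, 3 or 4 (values -0.49 to -0.39, adjusted p = 0.0521 to 0.0862). That of Avpi1 was lost without any 1 of 14 arrays, all except muscle SRT2104 replicates 3 and 4, muscle SD replicates 1 and 4 and liver SD replicates 3 and 5 (values 0.37 to 0.44, adjusted p = 0.0508 to 0.0967). The 95% interval of the difference lay within 1 log2 unit of 0 for 8 of the 9 alike probes, Dbp being the exception.

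**Figure D2:**
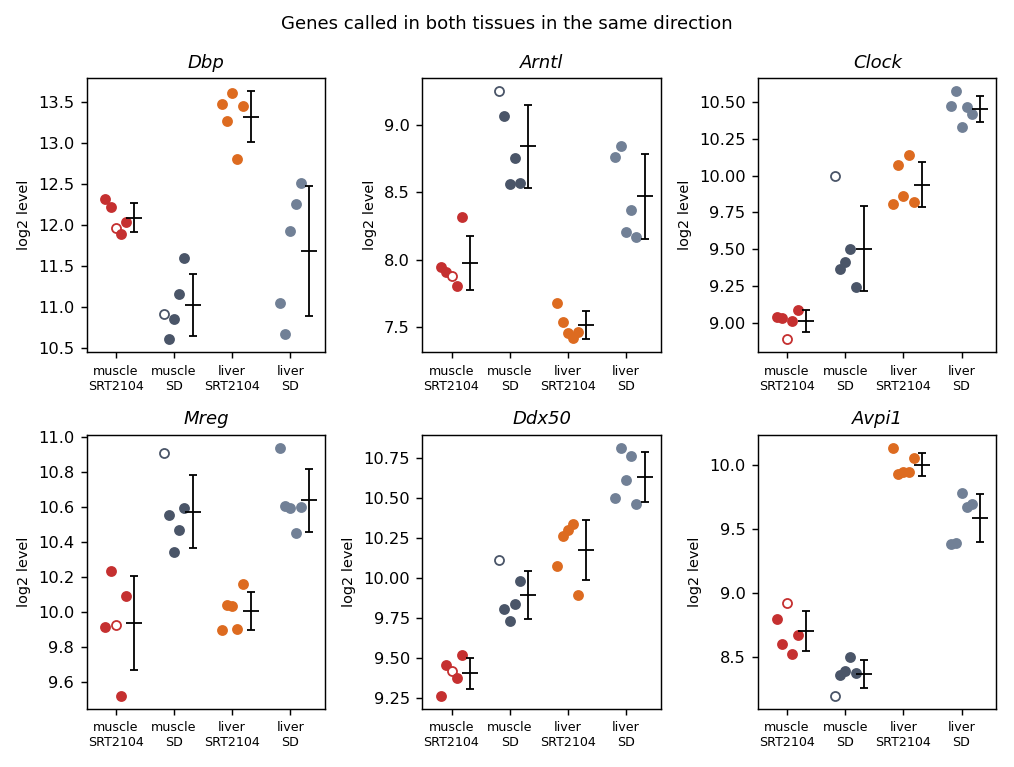
Log2 level of 6 alike genes on each array of muscle SRT2104, muscle SD, liver SRT2104 and liver SD, with 1 point per array (open for muscle SRT2104 replicate 3 and muscle SD replicate 1) and the mean with its SD in black. Dbp and Avpi1 are higher and the other 4 lower on SRT2104 in both tissues, with no overlap of the diets.

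Genes that moved in opposite directions were few. Septin9, a cytoskeletal GTP-binding protein, was higher on SRT2104 in muscle and lower in liver. It measured 7.63, 7.42, 7.77, 7.67 and 7.52 on muscle SRT2104 arrays, against 7.13, 6.93, 7.20, 7.08 and 7.12 on muscle SD arrays. In liver the SRT2104 arrays measured 9.10, 9.17, 8.85, 9.004 and 9.15, against 9.60, 9.30, 9.61, 9.32 and 9.72 on SD. The diets were separate in both tissues, and the responses were 0.51 ± 0.09 in muscle (adjusted p = 0.000333) and -0.46 ± 0.09 in liver (adjusted p = 0.0302), a difference of 0.97 ± 0.13 (adjusted p = 4.83e-05). The muscle level was near the background, since 2 of the 5 muscle SD arrays detected it.

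Cog8, a subunit of the Golgi tethering complex COG, measured 8.83, 8.997, 8.98, 8.90 and 9.03 on muscle SRT2104 arrays, against 8.54, 8.44, 8.68, 8.48 and 8.48 on muscle SD arrays. Its liver levels were 10.24, 10.30, 10.30, 10.25 and 9.999 on SRT2104, against 10.47, 10.52, 10.64, 10.84 and 10.48 on SD. The diets were again separate, with a difference of 0.80 ± 0.11 (adjusted p = 8.12e-05). Gpn3, a GTPase that takes part in bringing RNA polymerase II into the nucleus, moved the other way. It measured 8.86, 8.83, 8.79, 8.63 and 8.81 on muscle SRT2104 arrays, against 9.02, 9.02, 9.16, 8.98 and 9.07 on muscle SD arrays, and in liver 9.06, 9.12, 9.0, 9.07 and 9.18 on SRT2104, against 8.84, 8.80, 8.70, 8.84 and 8.78 on SD. Its difference was -0.56 ± 0.09 (adjusted p = 0.00018). Tmem214, a membrane protein of the endoplasmic reticulum, had a difference of 0.61 ± 0.10 (adjusted p = 0.000339), with the liver diets overlapping at 1 pair of values, and its other probe gave 0.06. These 4 genes kept their class with 18 arrays, whereas the count of opposite probes was 0 without liver SRT2104 replicate 4 and 25 without muscle SRT2104 replicate 3.

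The fit of 18 arrays added 6 of the 53 ribosomal protein genes to the opposite class, which held 0.658% of all genes in that fit, all 6 lower on SRT2104 in muscle and higher in liver. The list as a whole did not move one way: 2 others were alike in that fit, and 11 rose and 11 fell in muscle with 20 arrays. Rps6, a protein of the small subunit and the target of S6 kinase, measured 9.19, 9.25, 10.09, 9.20 and 9.24 on muscle SRT2104 arrays, against 10.37, 10.65, 10.69, 10.63 and 10.75 on muscle SD arrays. In liver it measured 13.003, 12.92, 13.04, 12.82 and 12.92 on SRT2104, against 12.54, 12.69, 12.55, 12.45 and 12.47 on SD. Muscle SRT2104 replicate 3 was the array of its group nearest to SD, and the diets were separate in each tissue. The muscle response was -1.23 ± 0.13 and the liver value 0.40 ± 0.13 (adjusted p = 0.163 with 20 arrays and 0.00172 with 18), and the difference of -1.62 ± 0.19 passed in both fits (adjusted p = 8.14e-06 with 20 arrays). Rps7, Rps4x, Rps9, Rpl7a and Rpl9 had differences of -1.67, -0.70, -0.76, -1.03 and -0.68, all past the threshold with 20 arrays. A second probe of Rps9 gave a difference of 0.26 that did not pass (adjusted p = 0.21).

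Ccn2, the secreted matrix protein known as connective tissue growth factor, measured 10.27, 10.83, 10.46, 11.02 and 10.46 on muscle SRT2104 arrays, against 10.50, 11.19, 11.74, 11.28 and 11.27 on muscle SD arrays. On liver arrays it lay at 11.52, 11.15, 11.24, 11.42 and 10.90 on SRT2104, against 9.81, 9.38, 9.81, 9.73 and 10.81 on SD. The liver groups were separate, although SD replicate 5 came close to the SRT2104 range, and the muscle groups overlapped through SD replicate 1. Its difference was -1.93 ± 0.32 (adjusted p = 0.000395), from a liver rise of 1.34 ± 0.23 (2.53-fold, adjusted p = 0.00834) and a muscle value of -0.59 (adjusted p = 0.0584, or -0.73 with 0.0175 in the fit of 18 arrays). Gpcpd1, a glycerophosphocholine phosphodiesterase, measured -0.87 in muscle and 0.75 in liver (liver adjusted p = 0.086). Its difference was -1.62 (adjusted p = 0.00058), and its second probe gave -1.65. Dcaf11, an adaptor of a ubiquitin ligase, and Sirt7, the nucleolar sirtuin, ran the other way with differences of 1.18 (adjusted p = 0.000114) and 0.70 (adjusted p = 0.0147). Dcaf11 measured 0.66 in muscle and -0.52 in liver (liver adjusted p = 0.0529), and Sirt7 0.42 and -0.29 (liver adjusted p = 0.366). Like Ccn2, these genes were opposite with 18 arrays only. Gpx1, Gstp1 and Selenop also joined the opposite class with 18 arrays only, and muscle SRT2104 replicate 3 measured 14.53, 12.79 and 12.47 for them. In that fit, dimmer probes of Gstp1 gave differences of -0.33 and -0.07 and one of Selenop gave -0.09, none past the threshold.

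**Figure D3:**
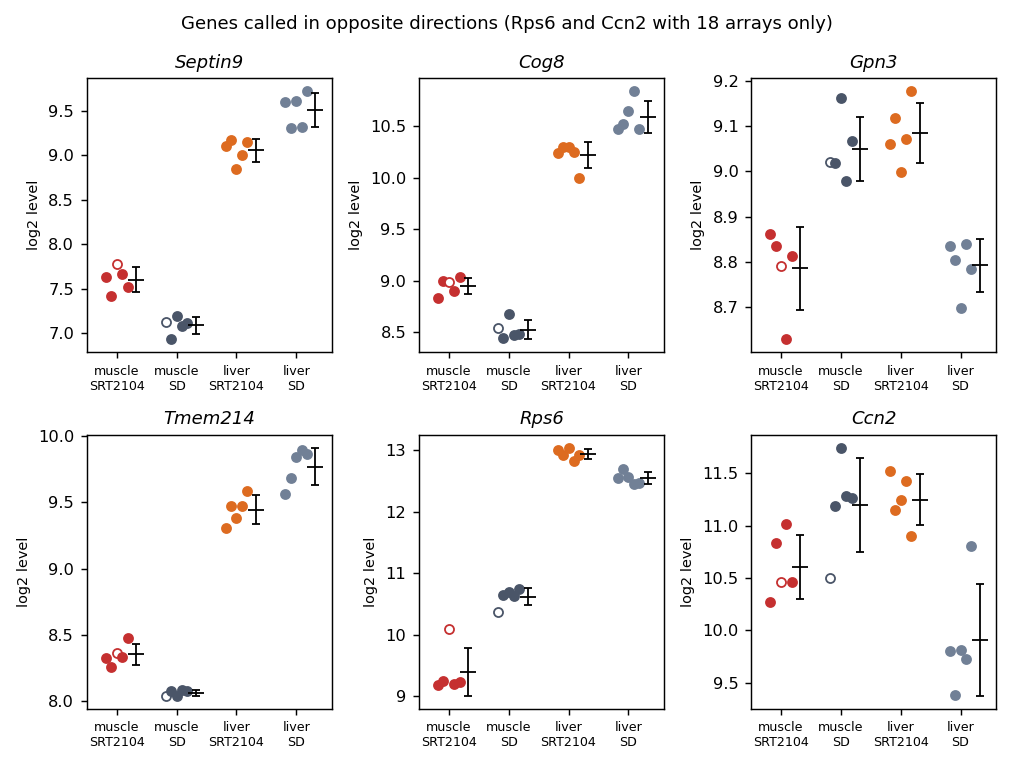
Log2 level of 6 genes on each array of muscle SRT2104, muscle SD, liver SRT2104 and liver SD, with 1 point per array (open for muscle SRT2104 replicate 3 and muscle SD replicate 1) and the mean with its SD in black. Septin9, Cog8, Gpn3 and Tmem214 were opposite with 20 arrays, and Rps6 and Ccn2, lower in muscle and higher in liver, only with 18.

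Most genes with a tissue difference changed in muscle only. Of the 809, 692 kept the class with 18 arrays, and in 520 of these the muscle diets did not overlap, 190 with higher and 330 with lower levels on SRT2104. Over all genes, 8.77% had higher and 9.69% lower muscle levels without overlap. The 692 genes had already passed the muscle test, so a larger share among them follows from that selection. Pdlim5, a protein of the muscle Z-disc that anchors kinases, led the falls. It measured 8.62, 8.78, 8.70, 8.17 and 8.18 on muscle SRT2104 arrays, against 11.06, 11.18, 11.04, 11.02 and 10.69 on muscle SD arrays. In liver it measured 8.11, 8.43, 8.19, 8.12 and 8.005 on SRT2104, against 7.93, 8.24, 8.27, 8.25 and 7.76 on SD. The muscle diets were more than 1 log2 unit apart at their nearest arrays, and the liver diets overlapped. The muscle response was -2.51 ± 0.13 (5.70-fold lower, adjusted p = 5.37e-11), the liver value 0.08, and the difference -2.59 ± 0.19 (adjusted p = 2.16e-08), with -2.73 from a second probe.

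Tspan3, a tetraspanin of the cell membrane, measured 8.75, 9.08, 8.84, 8.52 and 8.69 on muscle SRT2104 arrays, against 10.59, 10.97, 11.03, 10.59 and 10.93 on muscle SD arrays, a fall of 2.05 ± 0.10 (-2.05, difference -2.13, adjusted p = 2.09e-08). Its liver values lay between 7.54 and 7.77 on both diets. Ppp1cb, a catalytic subunit of protein phosphatase 1, fell by 1.97 ± 0.16 in muscle (difference -1.86, and -1.54 from a second probe), and Rab12, a small GTPase of endosomes, by 1.93 ± 0.12 (difference -1.86). Hnrnpa2b1, an RNA-binding protein, fell by 1.73 ± 0.15 (difference -1.93), whereas its dimmer probe gave a difference of -0.12 (adjusted p = 0.69). The falls of these 5 genes separated the muscle diets on all arrays.

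Genes that rose in muscle only did so by less. Aup1, a protein of lipid droplets and of the degradation pathway of the endoplasmic reticulum, measured 9.48, 9.15, 9.68, 9.80 and 9.85 on muscle SRT2104 arrays, against 8.19, 8.23, 8.44, 8.70 and 8.75 on muscle SD arrays. The muscle diets did not overlap, and the rise of 1.13 ± 0.12 (2.19-fold) went with a liver value of 0.11 and a difference of 1.02 ± 0.18 (adjusted p = 0.000479). A dimmer probe of Aup1 went the other way, with a difference of -0.59 in the fit of 18 arrays (adjusted p = 0.0201). Atox1, the copper chaperone, rose by 1.01 ± 0.15 in muscle (difference 1.08, adjusted p = 0.00143), Preb, a guanine nucleotide exchange factor for vesicle budding, by 0.91 ± 0.12 (difference 1.02, and 0.97 from a second probe), Hnrnpl, a splicing regulator, by 1.00 ± 0.15 (difference 0.93), and Ethe1, a mitochondrial enzyme of sulfide oxidation, by 0.73 ± 0.13 (difference 0.95).

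Probes of one gene did not always agree in their tissue difference. Of 1524 genes with several kept probes, 182 had 2 or more probes past the tissue difference, and in 16 of them these pointed in opposite directions (48 of 265 with 18 arrays). Lsm12 had differences of -0.89 and 0.92 from 2 probes that both passed. For Hspa8, the constitutive heat shock protein HSC70, the brightest probe gave 0.08 and another -2.90 (adjusted p = 0.0013). The 3 probes of Psmb7, a proteasome subunit, gave -0.82, -1.83 and -0.03, and those of Pdhb, a subunit of pyruvate dehydrogenase, -1.61 and -0.07. Single-probe values of muscle genes are therefore values of those probes, and which transcripts they report was not tested.

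Fewer genes changed in liver only. Nmrk1, a nicotinamide riboside kinase of NAD synthesis, rose in liver. It measured 9.33, 9.03, 9.02, 9.02 and 9.21 on liver SRT2104 arrays, against 8.49, 8.31, 8.38, 8.37 and 8.54 on liver SD arrays, while the muscle arrays measured 7.26, 7.10, 7.65, 7.22 and 7.28 on SRT2104 and 7.32, 7.23, 7.26, 7.16 and 7.38 on SD. The liver diets were well apart and the muscle diets overlapped near the background, since 2 of 5 muscle SRT2104 and 4 of 5 muscle SD arrays detected it. The liver rise was 0.70 ± 0.09 (1.63-fold, adjusted p = 0.000451) and the difference -0.67 ± 0.13 (adjusted p = 0.00121). Lrfn3, an adhesion protein known from synapses, fell in liver. It measured 9.38, 9.07, 8.58, 8.83 and 9.01 on liver SRT2104 arrays, against 10.19, 10.10, 9.92, 9.99 and 9.78 on liver SD arrays, a response of -1.02 ± 0.13 (2.03-fold lower, adjusted p = 0.000291). In muscle it lay between 8.27 and 8.85 on SRT2104 and between 8.59 and 8.86 on SD, and the difference was 0.91 ± 0.18 (adjusted p = 0.00146).

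Other liver only genes had less certain differences. Asns, the asparagine synthetase that amino acid stress induces, measured 10.13, 8.21, 8.51, 8.44 and 8.68 on liver SRT2104 arrays, against 7.34, 7.95, 7.91, 7.82 and 7.60 on liver SD arrays. The diets were separate, but SRT2104 replicate 1 stood far above its group. The liver rise was 1.07 ± 0.24 (adjusted p = 0.0388), the muscle value 0.02, and the difference of -1.05 (adjusted p = 0.0335) was lost in 10 of 36 alternatives. Among them were the fits without muscle SRT2104 replicate 2, muscle SD replicate 2, 3 or 4 or liver SD replicate 1 or 5 (-1.05 to -0.96, adjusted p = 0.0511 to 0.0615). Txnip, the thioredoxin-binding protein that glucose induces, measured 11.57, 11.40, 11.43, 10.69 and 11.50 on liver SRT2104 arrays, against 10.26, 9.80, 9.71, 10.37 and 10.79 on liver SD arrays, so that SRT2104 replicate 4 fell below SD replicate 5. In muscle it measured 12.27, 12.03, 11.75, 11.69 and 12.31 on SRT2104, against 11.52, 11.81, 11.96, 11.78 and 11.54 on SD. The liver rise of 1.13 ± 0.19 (2.20-fold, adjusted p = 0.00834) exceeded the muscle value of 0.29 by 0.85 (difference -0.85, adjusted p = 0.0368), and this difference was lost in 18 of 36 alternatives. These included leaving out muscle SRT2104 replicate 2 or 4, muscle SD replicate 2, 3 or 4, liver SRT2104 replicate 1, 2, 3 or 5 or liver SD replicate 2 or 3 (-0.85 to -0.73, adjusted p = 0.0513 to 0.0716).

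Plin5, a lipid droplet protein of oxidative tissues, measured 9.94, 9.76, 9.74, 10.14 and 9.89 on liver SRT2104 arrays, against 10.34, 10.64, 11.16, 11.05 and 10.53 on liver SD arrays, with no overlap. Its liver response was -0.85 ± 0.17 (adjusted p = 0.0243), its muscle value -0.09, and the difference 0.76 (adjusted p = 0.0319, lost in 16 of 36 alternatives). It was lost without muscle SRT2104 replicate 1, 2 or 5, muscle SD replicate 1 or 4, liver SRT2104 replicate 2 or 3 or liver SD replicate 3 or 4 (0.66 to 0.75, adjusted p = 0.0517 to 0.0616). A dimmer probe of Plin5 passed neither test, with -0.40 in liver (adjusted p = 0.213) and a difference of 0.33 (adjusted p = 0.296). Pnkd, a mitochondrial protein, Isg15, the ubiquitin-like protein that interferon induces, Alg12, an enzyme of glycan assembly, and Btg1, an antiproliferative factor, fell in liver by 0.68, 0.55, 0.51 and 0.55, with differences of 0.77, 0.69, 0.68 and 0.62. A dimmer probe of Btg1 gave a difference of -0.03 and a fall of 0.63 in muscle. Rab7b, an endosomal GTPase, Utp25 and Wdr3, both factors of ribosome assembly, rose in liver by 0.37, 0.38 and 0.32. The difference of Utp25 was lost without muscle SRT2104 replicate 2 or 4, muscle SD replicate 2 or 5, liver SRT2104 replicate 2, 3 or 4 or liver SD replicate 1 or 2 (-0.36 to -0.32, adjusted p = 0.0524 to 0.0624). A second probe of Utp25, of nearly the same level, gave 0.07 in liver (adjusted p = 0.792) and a difference of 0.02 (adjusted p = 0.927). Rab7b was not detected on any liver SD array, which makes its liver rise at least 1.15-fold against the detection limit, and Wdr3 was detected on 1 of 5 liver SD arrays.

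Clpx, the chaperone subunit of the mitochondrial ClpXP protease, fell in both tissues and by more in liver. It measured 9.22, 9.45, 9.72, 8.90 and 9.41 on muscle SRT2104 arrays, against 10.23, 10.04, 9.90, 9.61 and 9.70 on muscle SD arrays. In liver it measured 10.49, 10.68, 10.37, 10.70 and 10.94 on SRT2104, against 12.04, 12.15, 11.71, 11.97 and 11.60 on SD. The liver diets were separate, and the muscle diets overlapped narrowly. The falls were 0.56 ± 0.15 in muscle (adjusted p = 0.00813) and 1.26 ± 0.15 in liver (2.39-fold, adjusted p = 0.000248), and the difference was 0.70 ± 0.21 (adjusted p = 0.0267). A second probe gave -0.23 in muscle, -1.09 in liver and a difference of 0.86 (adjusted p = 0.00272).

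**Figure D4:**
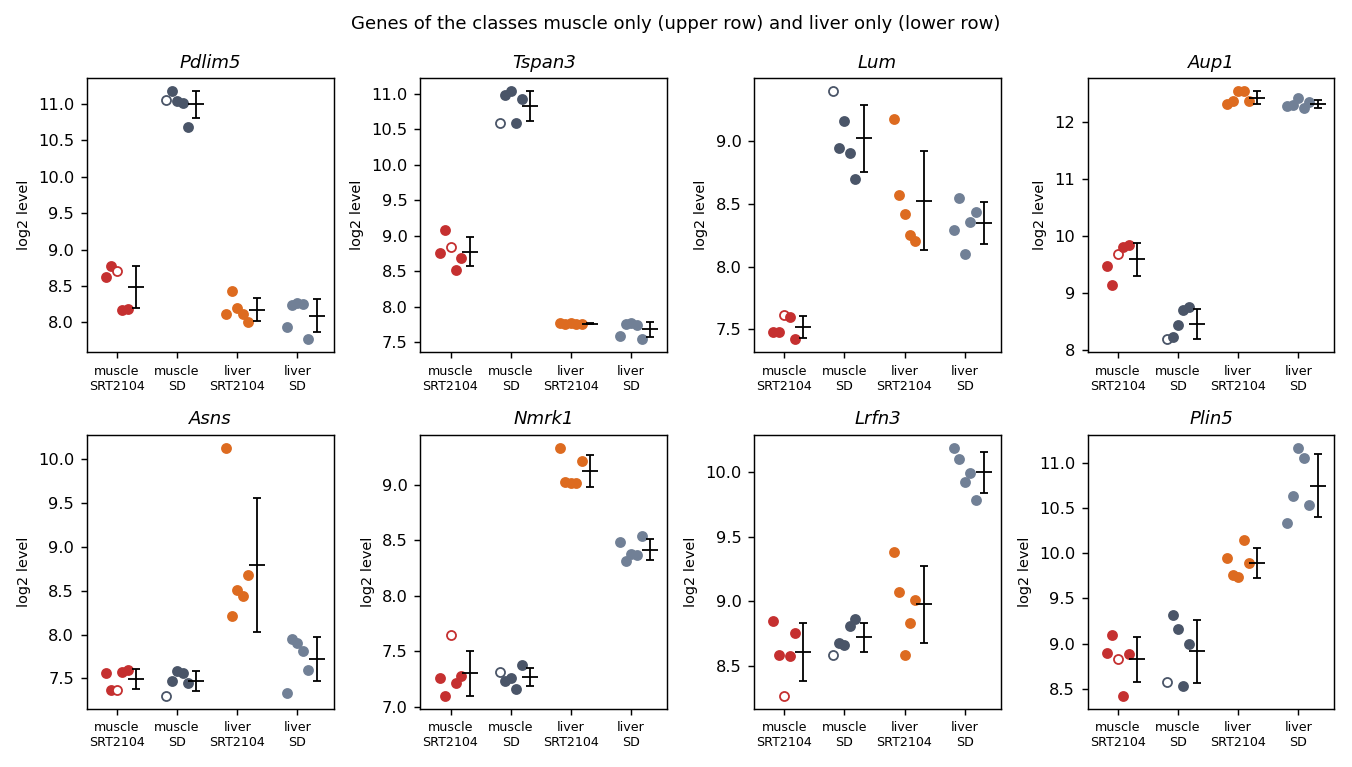
Log2 level of 4 muscle only genes (upper row) and 4 liver only genes (lower row) on each array of muscle SRT2104, muscle SD, liver SRT2104 and liver SD, with 1 point per array (open for muscle SRT2104 replicate 3 and muscle SD replicate 1) and the mean with its SD in black. Pdlim5, Tspan3 and Lum are lower and Aup1 higher on SRT2104 in muscle with no overlap, and in the lower row the diets separate in liver and overlap in muscle.

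Of the 30 gene lists with 10 or more measured members, markers of fibroblasts and matrix had the highest share of differences. Among 17 measured, 9 had a difference below 0 and 0 above it, against 8.36% and 8.51% of all genes, and the median difference was -0.59, against 0.07 over all genes. In muscle 11 fell and 1 rose, and in liver 0 passed. Lumican (Lum), a collagen-binding proteoglycan, measured 7.48, 7.48, 7.62, 7.60 and 7.42 on muscle SRT2104 arrays, against 9.40, 8.94, 9.16, 8.90 and 8.69 on muscle SD arrays, a response of -1.50 ± 0.15 (adjusted p = 3.96e-07) and a difference of -1.68 (adjusted p = 2.51e-05). Mgp, the matrix Gla protein, and Ogn, osteoglycin, had muscle responses of -1.44 and -0.99 and differences of -1.38 and -1.06, and Bgn, Mmp2, Col15a1, Dcn, Col6a1 and Col3a1 made up the other 6. The liver values of Lum, Mgp and Ogn were 0.18, -0.06 and 0.07. The list kept between 7 and 11 differences below 0 and 0 above 0 under the other scalings and with 18 arrays.

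Macrophage markers split. Of 14 measured, 5 had a difference that passed below 0 and 0 above it, and of the differences taken without regard to the test 9 were negative and 5 positive, with a median of -0.25, and the count below 0 lay between 4 and 8 under the other scalings and with 18 arrays. C1qc, a chain of complement C1q, measured 7.35, 7.46, 7.996, 7.45 and 7.36 on muscle SRT2104 arrays, against 8.30, 8.52, 8.69, 8.65 and 8.45 on muscle SD arrays (-1.0 ± 0.12, difference -1.0, adjusted p = 0.00049). The mannose receptor Mrc1 fell by 1.06 in muscle, and Lyz2, lysozyme of macrophages, by 1.61, though only 1 of 5 muscle SRT2104 arrays detected it and a second probe of Lyz2 gave a difference of -0.40 that did not pass. Among the markers that did not pass, Aif1 and Vsig4 had differences of 0.20 and 0.27 and Adgre1, the gene of F4/80, of 0.06. In tissue RNA, fewer cells of a type and less RNA per cell cannot be told apart.

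The levels of these lists and of other cell type markers were also summed on the linear scale for each array. The lists were chosen with earlier results of these data known, so the permutation p-values are not those of lists fixed in advance. The sum over 26 matrix markers was 16257 to 22177 on muscle SRT2104 arrays and 24663 to 27896 on muscle SD arrays (exact two-sided permutation p = 0.00794, the smallest that 5 against 5 arrays allow), with 22 of the 26 lower on SRT2104 and Col5a2 and Postn never detected. In liver it was 20660 to 28306 on SRT2104 and 18138 to 21942 on SD (exact permutation p = 0.0476). The sum over 20 macrophage markers was 4284 to 5228 on muscle SRT2104 and 6123 to 7451 on muscle SD arrays (exact permutation p = 0.00794), with 11 of the 20 lower and 9 higher on SRT2104, a median marker difference of -0.08, and Fcgr1, Itgam and Marco never detected. In liver it was 12505 to 14903 on SRT2104 and 12232 to 19939 on SD (exact permutation p = 0.579). The sum over 17 endothelial markers in muscle was 9555 to 12054 on SRT2104 and 9154 to 9948 on SD (exact permutation p = 0.0397). Of the 17, 11 were higher and 6 lower on SRT2104. Without the 2 arrays the sums did not overlap (10832 to 12054 on SRT2104 and 9154 to 9948 on SD). The 16 measured in both tissues had 2 differences above and 0 below 0, against 8.51% and 8.36% of all genes. These counts were 0 above and 1 below with neqc, and 5 above and 0 below with 18 arrays. The sum over hepatocyte markers in muscle reached 345708 on SRT2104 replicate 3, and without the 2 arrays it was 4027 to 6716 on SRT2104 and 4342 to 4587 on SD. In liver it was 951596 to 1401880 on SRT2104 and 699479 to 946243 on SD (exact permutation p = 0.00794), with 23 of 27 markers higher. This liver rise depended on the scaling. Over the 15 hepatocyte markers measured in both tissues, the median liver response was 0.59 in the main scaling. It was 0.02 with neqc, 0.02 with quantile normalization within tissue, 0.03 with quantile normalization over the 20 arrays and 0.26 with median alignment. With the scores as deposited it was 0.76, and with 1 SD for both tissues 0.55. Adipocyte and red cell sums overlapped between the diets in both tissues. The part of these cell types in the tissue difference was not tested.

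Lists of RNA handling and fuel oxidation held calls of both directions, to be read against the 8.36% of all genes below and the 8.51% above 0. Of 33 splicing factors and hnRNP proteins, 8 had a difference below 0 and 3 above it, with Hnrnpa2b1, Srsf5 (-1.18) and Hnrnpk (-1.11) below and Hnrnpl (0.93) above. Of 53 cytosolic ribosomal proteins 11 lay below and 3 above 0, and with arrays aligned at their medians the counts were 8 below and 9 above. Of 20 genes of mitochondrial fatty acid oxidation 6 lay below and 1 above 0, Acaa2 (-1.59), Etfa (-1.10), Acadl (-1.10) and Etfdh (-0.86) among the first and Acads (0.61) the last, and median alignment turned this to 3 below and 5 above. A second probe of Acadl, the long-chain acyl-CoA dehydrogenase, gave 0.03. The medians of the 3 lists were 0.01, -0.05 and 0.06, beside the 0.07 of all genes, and that of fatty acid oxidation was -0.19 with 18 arrays.

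Mitochondrial lists had calls in small numbers that moved with the scaling. Complex I had 3 above and 2 below 0 among 33 genes, shares near the 8.51% and 8.36% of all genes, with 11 above and 2 below under median alignment, 0 above and 3 below with neqc, and 1 above and 5 below with quantile normalization within tissue. Complexes II to V had 1 above and 4 below among 38 genes (10 above and 3 below under median alignment, 1 and 8 with quantile normalization within tissue, 3 and 9 with 18 arrays), with Atp5pb (-1.84) and Cox7a2l (-1.37) among those below. Of 67 mitochondrial ribosomal proteins 10 lay above and 7 below 0. Of 17 interferon-stimulated genes 3 lay above and 0 below 0 (Isg15, Irgm1 and Usp18), with a median difference of 0.27. Dimmer probes of Irgm1 and Usp18 gave differences of 0.25 and 0.47 that did not pass (adjusted p = 0.405 and 0.123). In muscle that probe of Irgm1 gave -0.31, where the brightest gave 0.63. The difference of Isg15 was lost with neqc (adjusted p = 0.0742). For 16 genes of cholesterol synthesis and sterol sensing there was no call, nor for the 15 hepatocyte markers measured in both tissues, whose median difference was 1.22 with 20 arrays and -0.14 without the 2, where 3 of them had a difference below 0.

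Signaling genes of growth and nutrient control split between the directions. Atf4, the transcription factor of the integrated stress response, fell in muscle by 1.29 ± 0.12 (difference -1.19, adjusted p = 8.34e-05), beside Eprs, a tRNA synthetase (difference -0.86), whereas Shmt2, the mitochondrial serine enzyme, rose (difference 0.57). These belong to the 18 measured genes of the amino acid stress response, 3 of which lay above and 3 below 0, against 8.51% and 8.36% of all genes. Of 20 genes of insulin, AMPK and mTOR signaling 3 lay above and 3 below 0. Prkaa2, a catalytic subunit of AMPK, had a difference of -1.42 (adjusted p = 2.79e-05) and Rheb, the GTPase that activates mTORC1, of -0.66 (adjusted p = 0.00127), while a dimmer probe of Prkaa2 gave -0.35 (adjusted p = 0.41). Eif4ebp2, a repressor of translation initiation, lay below 0 as well (-0.62), and Stk11, the kinase upstream of AMPK (0.56), and the AMPK subunits Prkag1 (0.39) and Prkab1 (0.29) lay above 0. Among 7 adipocyte markers, leptin (Lep, -1.55) and Car3 (-1.44) had differences below 0, while of the other 5 none passed and 4 had positive values, and the median of the list was 0.05.

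**Figure D5:**
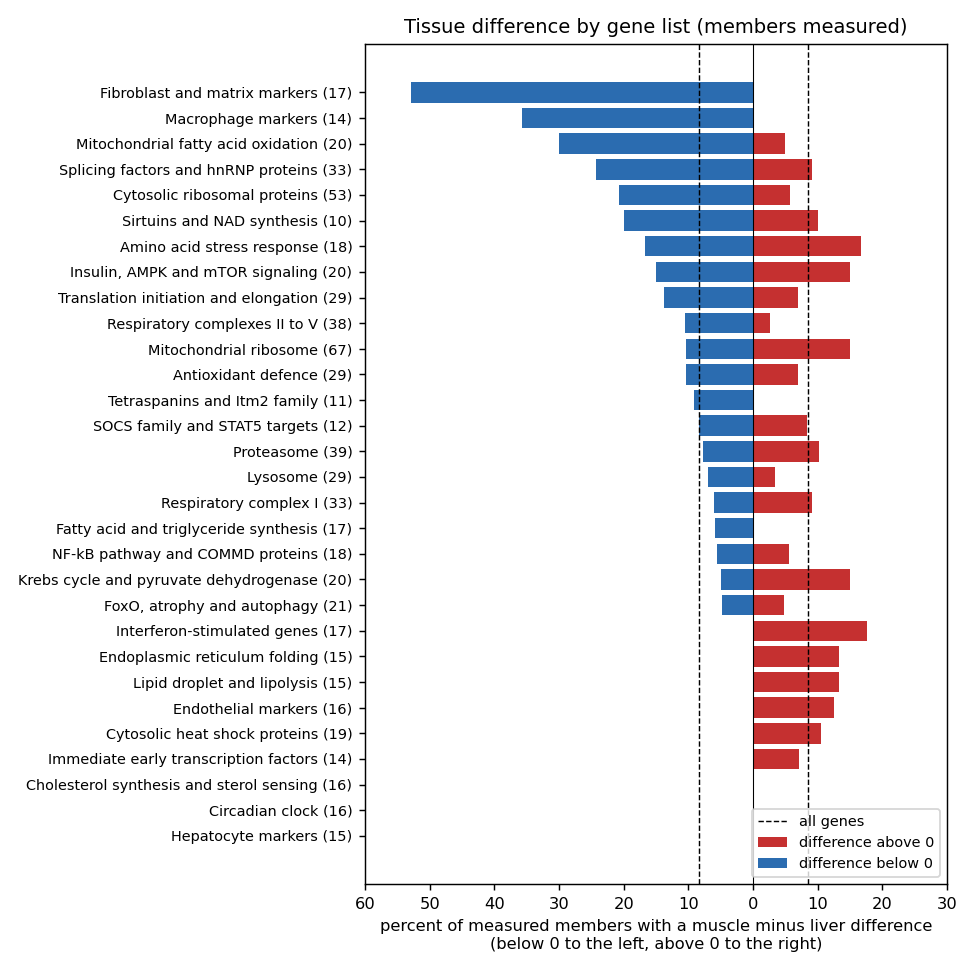
Percent of the measured members of each gene list (number in brackets) with a tissue difference above 0 (red, to the right) or below 0 (blue, to the left) at an adjusted p under 0.05, for lists with at least 10 measured genes, and dashed lines at the 8.51% and 8.36% of all genes. Matrix and macrophage markers extend farthest below 0 with no member above it, and the circadian clock has no bar.

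For most genes that the study names in its text, the tissue difference in array RNA did not pass. The study measured RelA, IkBa (the product of Nfkbia) and SOD2 as protein and citrate synthase (Cs) as enzyme activity. It measured COMMD1 and COMMD10 by quantitative PCR, which rose in muscle and not in liver. For RelA, IkBa, SOD2 and citrate synthase the array values are not like measures, whereas quantitative PCR reads mRNA as the arrays do. On the arrays, neither Commd1 (-0.18, adjusted p = 0.0999) nor Commd10 (-0.09, adjusted p = 0.586) passed in muscle. A dimmer probe of Commd1 gave 0.05 there (adjusted p = 0.729). Socs2, a suppressor of cytokine signaling, measured 1.19 ± 0.35 in liver (adjusted p = 0.119) and 0.11 in muscle, and its difference of -1.08 had a 95% interval from -2.12 to -0.04 before adjustment (adjusted p = 0.146), with liver SD replicate 1 at 10.34 and the other liver SD arrays at or below 8.60. Without that array the difference of Socs2 was -1.47 (adjusted p = 0.0121), and with 18 arrays the liver response passed (adjusted p = 0.039) and the difference did not (-1.0, adjusted p = 0.126). Cish, another member of that family, rose in muscle by 1.43 ± 0.50 (adjusted p = 0.0368), and its difference of 1.02 had an interval from -0.47 to 2.51. Sirt1 fell in muscle by 0.39 ± 0.12 (adjusted p = 0.0211) and measured -0.08 in liver (difference -0.31, interval -0.68 to 0.05, adjusted p = 0.232). Commd1, Commd10, Rela, Nfkbia, Sod2 and Cs had differences of -0.09, -0.13, 0.09, -0.33, 0.05 and 0.07, none past the threshold. Among their relatives, Jak2, the kinase upstream of STAT5, fell in muscle (difference -0.72, adjusted p = 0.00785, and -0.65 from a second probe), Sirt2 fell in muscle (difference -0.47, adjusted p = 0.00119), and Commd3 and Commd5 had differences of -0.97 and 0.41.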

How the data were processed

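Muscle and liver RNA of mice on SRT2104 and SD was measured on Illumina MouseRef-8 v2 arrays, 5 per group. The authors used GenomeStudio, given as version 1.6.0 among the submitters' processing tools. Linear intensity values, not normalized between arrays, were deposited as signals. Their columns name the group and a running number, the same numbers in muscle and liver of a diet, but not the replicate of the labels. Single arrays were therefore read from the deposited z-scores. The deposited detection p-value sets each probe's signal against negative control beads of its array. Each deposited score is the natural-log signal minus its array mean, divided by its array SD, over all 25697 probes.

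Scores were rescaled per array to mean 0 and SD 1 over the probes kept in the tissue and multiplied by the mean array SD of that tissue (1.03 in muscle and 1.19 in liver on the natural log scale), expressed in log2 units. All 4 groups were fitted in 1 model with limma (version 3.58.1 in R 4.3.3). Muscle and liver arrays were treated as independent, although the design notes draw both tissues from the same mice. No source used here says whether equal replicate numbers mark the same mouse, so the p-values of the main fit leave this pairing out. Fits that pair equal numbers are among the alternatives given below. The spread is pooled, so that leaving out muscle arrays also changes liver p-values. CR arrays entered only the filter and the SD. Symbols came from the platform annotation, which names 1 gene for 23978 probes and none for 1719. Precision is limited by the 5 arrays of a group. The fit was run on simulated data with independent noise and changes planted in muscle SRT2104 only. The simulation held no pairing of mice and no array with liver RNA, so it does not test how the fit handles these.

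Named genes were, per class and direction, the 5 with the largest difference (for alike, the largest smaller response) that kept their class with 18 arrays and whose diets did not overlap, up to 3 with the smallest adjusted p of each gene list, and genes the study's text names. Elovl3 was not measured in both tissues. Tmem214, Clpx, Snx24, the genes that were opposite only with 18 arrays, Hspa8 and further list members were named after their values were seen. The members and lists were chosen with earlier results of these data known. Alternatives were other scalings (neqc (offset 16), quantiles, alignment at the median, scores as deposited, 1 SD for both tissues), other filters, all 30 arrays, the replicate number as a block, array weights, the methods' t-test and leaving out each array. Sequences are those of RefSeq. Python 3.11.15 with matplotlib 3.10.9 drew the figures.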

Additional observations from a re-analysis of the deposited data

Results flagged for a closer look

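Of 156 groups (39 genes in 4 groups), 14 held 1 array whose gap to the next was larger than 0.71 of the group's range, the 95% limit of Dixon's test for 5 samples, which chance exceeds in about 1 in 20 groups. Among SRT2104 livers, replicate 5 stood apart at 9.999 for Cog8, 12.72 for Atox1, 11.45 for Hnrnpa2b1 and 11.67 for Cish, replicate 1 at 10.13 for Asns, and replicate 4 at 10.69 for Txnip. Among SD livers, replicate 3 stood apart at 10.24 for Ppp1cb, replicate 5 at 8.85 for Isg15, and replicate 1 at 10.34 for Socs2. In muscle, SRT2104 replicate 3 stood apart at 9.32 for Ethe1 and 9.38 for Socs2, SRT2104 replicate 5 at 8.32 for Arntl, SD replicate 2 at 8.14 for Pnkd, and SD replicate 1 at 12.19 for Sod2.

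The test of the difference between muscle and liver responses passed for the following genes named by the rule. Above 0 lay Atox1 (1.08), Preb (1.02), Aup1 (1.02), Septin9 (0.97), Ethe1 (0.95), Hnrnpl (0.93), Lrfn3 (0.91), Cog8 (0.80), Pnkd (0.77), Plin5 (0.76), Isg15 (0.69) and Alg12 (0.68). Below 0 lay Pdlim5 (-2.59), Tspan3 (-2.13), Hnrnpa2b1 (-1.93), Ppp1cb (-1.86), Rab12 (-1.86), Asns (-1.05), Txnip (-0.85), Nmrk1 (-0.67), Gpn3 (-0.56), Rab7b (-0.50), Utp25 (-0.37) and Wdr3 (-0.36).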

How the results depend on the processing

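The 1629 probes with a tissue difference became 937 when all 30 arrays entered the fit and 2743 with the methods' t-test unadjusted. Those above 0 (725) became 481 with the scores as deposited, 397 with 30 arrays, 1232 with 18 arrays and 1406 with the unadjusted t-test, and those below 0 (904) became 540 with 30 arrays. The muscle only probes (1207) became 710 with 30 arrays and 1874 with the unadjusted t-test. Counts that rest on liver calls moved most. Liver calls (54) became 17 with neqc, 13 with quantile normalization over the 20 arrays, 95 with median scaling, 14 with 1 SD for both tissues, 103 with detection on at least 1 of 15 arrays, 509 with no filter, 372 with 18 arrays, 131 with array weights, 10 with the t-test after Benjamini-Hochberg and 1438 unadjusted. In the same order of settings, liver only probes (24) became 10 with neqc, 8 with quantile normalization over the 20 arrays, 7 with 1 SD, 51 with detection on at least 1 array, 144 with no filter, 127 with 18 arrays, 47 with weights, 3 with the adjusted and 312 with the unadjusted t-test. Opposite probes (4) became 1 with neqc and with either quantile normalization, 13 with median scaling, 2 with 1 SD, 7 with detection on at least 10 arrays, 8 with at least 1, 19 with no filter, 56 with 18 arrays, 14 with weights, 0 with the adjusted t-test (249 unadjusted). Alike probes (9) became 4 with neqc, 4 with quantile normalization within tissue, 2 over the 20 arrays, 3 with 1 SD, 28 with no filter, 4 with 30 arrays, 47 with 18 arrays, 14 with weights, 0 with the adjusted t-test (197 unadjusted). The cause of these changes was not tested.

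Leaving out each array in turn gave 1328 to 2179 probes with a difference, 548 to 1130 above 0, 780 to 1049 below 0, 2289 to 3178 called in muscle, 16 to 196 called in liver, 0 to 25 opposite, 963 to 1598 muscle only, 8 to 73 liver only and 2 to 36 alike. The highest counts came without muscle SRT2104 replicate 3. Without muscle SD replicate 1 there were 139 liver, 18 opposite, 59 liver only and 17 alike probes. Liver calls were 26, 20, 16 and 24 without liver SRT2104 replicates 1, 2, 3 and 4 and 17 without liver SD replicate 2, and opposite probes 1, 1, 1 and 0 and 1 without the same 5 arrays, and 2 without muscle SRT2104 replicate 2 or muscle SD replicate 2. Liver only probes were 13, 10, 8, 12 and 8 without the same 5 livers and 15 without muscle SRT2104 replicate 2, and alike probes 4, 2, 3, 4 and 3, with 5 without liver SRT2104 replicate 5 and 4 without liver SD replicate 4.

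No source used here ties equal replicate numbers to 1 mouse, and the data did not settle it: deviations of equal numbers correlated between -0.12 and 0.36 across tissues, over 0.1 in 4 of 10 pairs and highest with their own number in 5 of 10, and between -0.24 and 0.30 across diets, over 0.1 in 6 of 10. A fit with number and diet as 1 mouse gave 1482 differences as a fixed block and 1800 as a random block. Number as a block within tissue gave 1497 differences, 26 liver calls, 2 opposite and 10 liver only probes. Over 45 results for named genes and 1607 alternative values, 1486 stayed on their side of the threshold, 119 lost it, 2 gained it and 0 of the called values changed sign. Low signal limits Arntl in liver SRT2104 and Septin9 and Nmrk1 in muscle, which some of those arrays did not detect. The recount of gene list members under each scaling was chosen after seeing the data.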

Other observations

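With 18 arrays in place of 20, the share of all genes below 0 was 10.1% in place of 8.36% and that above 0 was 14.7% in place of 8.51%, so that lists gained calls in general. Of 29 antioxidant genes, 2 lay above and 3 below 0 with 20 arrays, and 2 above and 8 below with 18, and Prdx3, a mitochondrial peroxiredoxin, had a difference of -1.25 (adjusted p = 1.78e-05) in the first of these. Of 17 genes of fatty acid and triglyceride synthesis, 1 lay below 0 with 20 arrays and 6 with 18. Lpin1, the phosphatidate phosphatase of that list, measured -0.64 in muscle and 0.90 in liver, neither past the threshold, with a difference of -1.54 (adjusted p = 0.0439). Insig2, an anchor of sterol sensing in the endoplasmic reticulum, measured -0.55 in muscle and -0.76 in liver and was alike with 18 arrays only.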
